A study of Mus musculus with 8 samples.

Results

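EVX1 knockout (EVX1 KO) cells were compared with wild-type (WT) cells at day 4 of differentiation, using 5 of the 8 libraries of the series, 2 of WT and 3 labelled EVX1 KO. Both groups were CJ9 mouse embryonic stem (ES) cells, strain 129S4/SvJae, grown for 4 days in serum-containing medium from which leukemia inhibitory factor (LIF) had been withdrawn. LIF is the cytokine that keeps these cells undifferentiated. According to the series title the knockouts were made by CRISPR, and the remaining 3 libraries came from Evx1as KO cells of the same line, treatment and day. The sources used here give neither the position of the edit nor the number of clones, and do not say that replicates were separate cultures. P-values therefore cover the spread between these libraries alone, part of which may be technical. Expression was measured as FPKM, the number of fragments scaled to transcript length and library size. Of 38610 symbols in the table, 12685 had 1 FPKM or more in 2 or more of the 5 libraries and were tested on the log2(FPKM + 1) scale. Of the genes tested, 11326 reached 1 FPKM in all 5 libraries, 251 did so in no WT library and 83 in no EVX1 KO library.

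Evx1 encodes a homeodomain transcription factor of the primitive streak, the region where epiblast cells leave the epithelium and become mesoderm and endoderm. Nodal signalling is strongest at the anterior end of the streak, where Gsc, Foxa2, Lhx1 and Cer1 mark precursors of definitive endoderm and axial mesoderm. Wnt and BMP signals act further back, where T, Tbx6 and Msgn1 mark the path to paraxial mesoderm. EVX1 has been described as a posterior streak factor and as a repressor of Goosecoid (Gsc) in human ES cells. ES cells that lose LIF pass through a primed, epiblast-like state marked by Fgf5 and Otx2 before a share of them takes on streak identity.

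The targeted gene was examined first, and its transcript level was alike in the libraries of both labels. Evx1 stood at 22.0 and 31.2 FPKM in WT and at 26.3, 20.8 and 31.7 FPKM in EVX1 KO. The EVX1 KO values overlapped the WT values, and the log2 difference (EVX1 KO minus WT) was −0.01 ± 0.41 (standard error; 95% interval −0.94 to 0.91; adjusted p = 0.987). Evx1as, the antisense long noncoding RNA listed as 5730457N03Rik, stood at 5.36 and 6.75 FPKM in WT and at 5.01, 8.81 and 7.39 FPKM in EVX1 KO. Its log2 difference was 0.17 ± 0.21 (95% interval −0.29 to 0.64, adjusted p = 0.662). Transcript level thus gives no check of the knockout label, and EVX1 KO below is the name the labels give. In the coordinates of the table Evx1 spans 52263491 to 52268372 and Evx1as 52258382 to 52264826 on chromosome 6. The genes share 1336 bp. The libraries were stranded per the labels' protocols, but no strand setting is stated for the FPKM values. Whether reads there were assigned by strand is therefore unknown. Both transcripts were far above their level in Evx1as KO, where Evx1 averaged 2.28 ± 1.66 FPKM (SD, n = 3; EVX1 KO minus Evx1as KO 3.19, adjusted p = 9.13e-04), in a contrast that called 21.3% of all tested genes. None of the 7 tested Hoxa cluster genes and Evx1 neighbours passed, and the largest difference among them was that of Tax1bp1 (0.37 ± 0.08, adjusted p = 0.0615).

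The libraries were alike in overall size. Summed FPKM ran from 531523 to 551840 and the number of genes at 1 FPKM from 12244 to 12328. Absolute depth is unknown. Steps between low values put the other 4 libraries at 0.99 to 1.19 times the depth of WT replicate 1, although only 35.0% to 38.0% of low genes lay at the estimated step. Correlations of log2(FPKM + 1) across genes, which are not independent replicates, were 0.986 between the WT libraries, 0.978 to 0.987 among EVX1 KO and 0.969 to 0.982 between the groups. Markers of the labelled cell type were present, with Pou5f1 at 308 and 328 FPKM in WT and at 302, 345 and 365 FPKM in EVX1 KO. The 7 ES cell markers summed to 513 to 614 FPKM in WT and 555 to 578 in EVX1 KO. Most of this sum was Pou5f1, and its members did not move together. Nanog was higher and Dppa5a and Esrrb were lower in every EVX1 KO library than in both WT libraries, while Pou5f1, Sox2, Zfp42 and Utf1 overlapped. Of the markers of other cells, 9 feeder or fibroblast markers summed to 21.1 to 35.2 FPKM in WT and 20.4 to 26.4 FPKM, 6 parietal and visceral endoderm markers to 1.61 to 2.18 and 0.791 to 2.18 FPKM, and 3 blood markers to under 1 FPKM in every library. Afp, Ttr, Apoa1 and Hnf4a, which define visceral endoderm, were at or near 0 in all 5 libraries. The summed levels of 3 other marker sets moved with the groups or with single libraries. The 6 trophoblast markers, nearly all of it Krt8 and Krt18, summed to 2580 to 3092 FPKM in WT and 1715 to 2179 FPKM in EVX1 KO, without overlap. The 4 neural markers, mostly Nes, summed to 72.4 and 91.0 FPKM in WT and to 28.99, 58.5 and 77.3 FPKM in EVX1 KO. The 3 heart markers summed to 5.37 and 2.22 FPKM and to 9.06, 15.86 and 3.24 FPKM. In EVX1 KO the heart sum was mostly Myl7, and Tnnt2 and Myh6 overlapped between the groups. The part of these marker sets in the results below was not tested. In bulk RNA, fewer cells of a type and less RNA per cell cannot be told apart.

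Libraries labelled EVX1 KO did not match one another on chromosome 8. Over 496 chromosome 8 genes averaging 5 FPKM or more, the median log2 difference from the WT mean was −0.456 in EVX1 KO replicate 1, −0.352 in replicate 2 and 0.031 in replicate 3, with the WT libraries at 0.054 and −0.054. Replicates 1 and 2 thus stood at 0.729 and 0.783 of the WT level, and replicate 3 at 1.022. In replicates 1 and 2, 88.7% and 83.3% of these genes lay below the WT mean, against 44.6% in replicate 3. The shift ran along the whole chromosome in replicate 1, whose medians in the 10 bins of 10 Mb with at least 20 genes lay between −0.50 and −0.297. In replicate 2 the medians of these bins ran from −0.471 to −0.042, with the weakest shift from 20000001 to 30000000. The next bin, from 30000001 to 40000000, held only 17 genes and stood at −0.014 in replicate 2. Replicate 3 stayed between −0.039 and 0.083 in the 10 bins with at least 20 genes. Smaller shifts in the other direction were seen in all 3 EVX1 KO libraries on chromosome 1 (0.164, 0.173 and 0.152), chromosome 14 (0.164, 0.178 and 0.131) and the X chromosome (0.126, 0.112 and 0.066). The 16 remaining chromosomes had medians of −0.058 to 0.044 in EVX1 KO and of −0.031 to 0.031 in WT. With 3 libraries against 2, an exact two-sided permutation test cannot go below p = 0.1, so these medians are descriptions. Among Y-linked genes, Eif2s3y stood at 1.55 and 1.17 FPKM in WT and at 0, 2.98 and 1.02 in EVX1 KO, and Ddx3y was listed at 0 in EVX1 KO replicates 1 and 3 and at 1.79 FPKM in replicate 2.

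**Figure D1:**
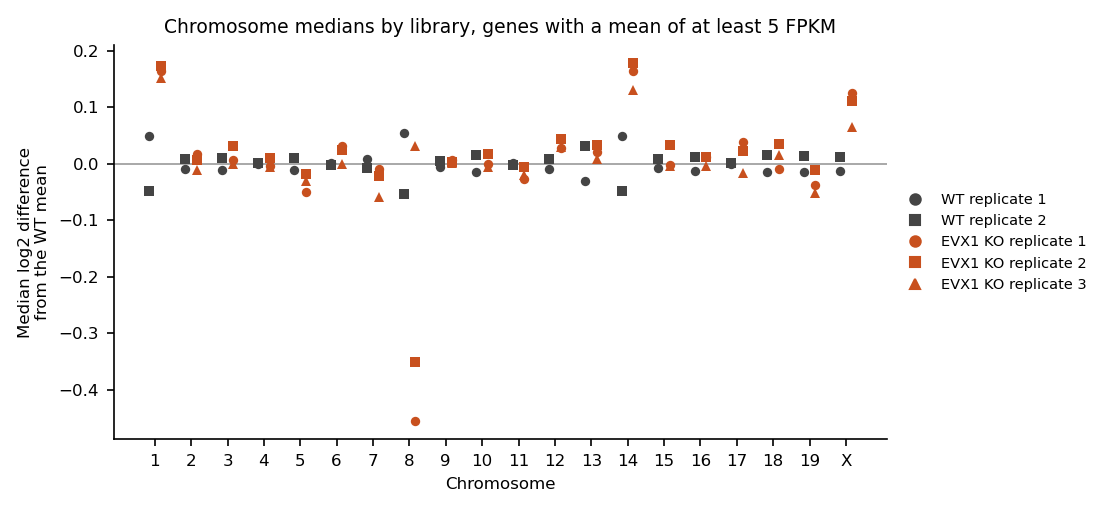
Median log2 difference from the WT mean for each chromosome (horizontal axis) in each of the 5 libraries, over 8264 genes averaging 5 FPKM or more; each point is 1 library. Chromosome 8 lies at −0.456 and −0.352 in EVX1 KO replicates 1 and 2 and at 0.031 in replicate 3, while chromosomes 1, 14 and X lie above 0 in all 3 EVX1 KO libraries.

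The main question was which genes differ between EVX1 KO and WT during differentiation. At a Benjamini-Hochberg adjusted p under 0.05 in limma, 97 genes (0.765% of those tested) rose in EVX1 KO and 77 (0.607%) fell, together 1.37%. At an unadjusted p under 0.05 there were 2767 genes (21.8%). In all 174 called genes the 3 EVX1 KO libraries lay wholly on 1 side of both WT libraries, as they did for 39.6% of all tested genes, 21.4% above WT and 18.2% below. The median log2 difference over all tested genes was 0.02. Among the largest rises were Cer1, Otx2, Fgf5, Jakmip1, Adamts9 and Sema6d, and among the largest falls Msgn1, Mt2, Mt1, Cdkn2a and Prph. The number of calls rested on single libraries. Without WT replicate 1 there were 5 rises and 1 fall, without WT replicate 2 there were 17 and 11, without EVX1 KO replicate 1 there were 33 and 19, and without EVX1 KO replicate 2 there were 4 and 4. Without EVX1 KO replicate 3 there were 295 and 366, which included all 174 of the calls made with all libraries. The 3 Evx1as KO libraries enter only through the shared spread, and without replicate 1, 2 or 3 of them there were 49 and 35, 85 and 65, or 28 and 23. A fit of only the 5 libraries gave 16 rises and 19 falls and kept 29 of the 174 calls. Of the called genes named below, it kept Cer1, Otx2, Fgf5, Zic2, BC033430, Scd1, Pck2, Msgn1, Cdkn2a, Cdkn2b, Mdm2, Vgf, Nkx2-9, Tdh, Ly6h, 1700007K13Rik, Ctgf and Lgals1. The others were not called there, with adjusted p from 0.0525 to 0.111, and these included Mt1 (0.0862), Mt2 (0.0886), Wnt5a (0.0829) and Rpl39 (0.0829). A fit with 1 WT library borrows its spread from the knockouts. Of the 30 genes with the largest named changes, Fgf5 and Otx2 were called with each of the 8 libraries left out in turn. All 59 named genes that passed kept the sign of their difference in every alternative run. Since their groups did not overlap, leaving out libraries or changing the filter or pseudocount could not alter that sign.

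**Figure D2:**
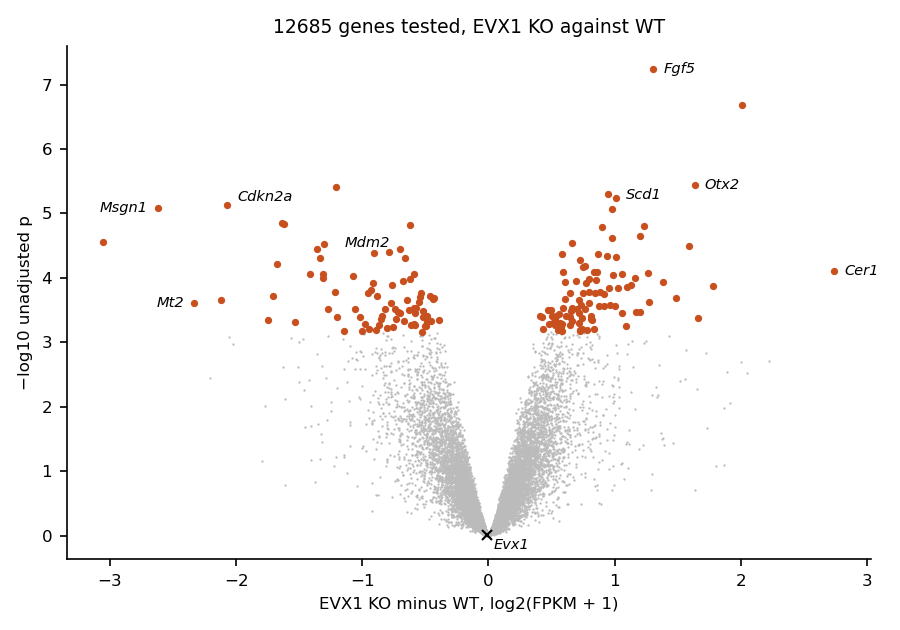
Log2 difference (EVX1 KO minus WT, horizontal axis) against −log10 of the unadjusted p (vertical axis) for the 12685 genes tested; each point is a gene and orange points have an adjusted p under 0.05. The 97 rises and 77 falls lie on both sides, and Evx1 (cross) lies at −0.01.

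Cer1, a secreted antagonist of Nodal, BMP and Wnt that is made by anterior endoderm, had the largest rise. It stood at 0.498 and 0.489 FPKM in WT and at 9.84, 12.6 and 5.72 FPKM in EVX1 KO. All 3 EVX1 KO libraries were far above WT, with replicate 3 the lowest of them. The log2 difference was 2.74 ± 0.40 (adjusted p = 0.0256). In Evx1as KO, Cer1 averaged 0.513 ± 0.815 FPKM (SD, n = 3), and the direct difference between the knockouts was 2.85 (adjusted p = 0.00139). The Cer1 call was lost without WT replicate 1 or 2 or EVX1 KO replicate 1 or 2, and over its 19 alternatives the adjusted p reached 0.282. The sequence before the Cer1 start site is shown because forkhead factors such as Foxa2 are expressed in the same cells of the embryo. It is the 250 bases before the RefSeq start on GRCm38.p6, chr4:82885152-82885401, minus strand, with capitals for the forkhead (FOX) core.
Cer1: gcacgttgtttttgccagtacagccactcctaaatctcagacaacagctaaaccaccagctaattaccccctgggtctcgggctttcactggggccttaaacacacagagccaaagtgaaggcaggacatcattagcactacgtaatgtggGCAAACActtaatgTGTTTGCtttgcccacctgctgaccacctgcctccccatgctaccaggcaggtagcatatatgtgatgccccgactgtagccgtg
The FOX core was searched as TGTTTAC and TGTTTGC on both strands and was found in 7.3% of 32841 RefSeq promoter windows of this length. The Cer1 window held 2 matches, 1 on each strand. It also held 1 match to the homeodomain core TAATTA, in lower case, which stood in 4.84% of all windows. A match is a description of the letters and not a binding site.

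The other genes of the anterior streak and definitive endoderm had positive differences and did not pass with all 8 libraries in the fit. Of 10 definitive endoderm genes tested 1, Cer1, rose and 0 fell. All 10 had a positive difference, and in 6 of them the groups did not overlap, against 21.4% of all tested genes. Their median was 0.98, and 0.55 over the 7 members outside chromosomes 1, 8, 14 and X. Foxa2, a forkhead factor of endoderm and notochord, stood at 1.47 and 1.29 FPKM in WT and at 11.8, 14.3 and 5.93 FPKM in EVX1 KO (2.22 ± 0.51, adjusted p = 0.0670). Sox17, which specifies endoderm, stood at 1.41 and 0.371 FPKM and at 8.81, 8.48 and 2.27 FPKM (1.89 ± 0.47, adjusted p = 0.0763). For both genes EVX1 KO replicate 3 was nearest to WT. Gsc stood at 12.4 and 16.2 FPKM in WT and at 33.9, 35.8 and 31.5 FPKM in EVX1 KO (1.19 ± 0.51, adjusted p = 0.221). Lhx1, a LIM homeobox factor of the anterior streak, stood at 22.6 and 20.7 FPKM and at 40.8, 47.3 and 43.6 FPKM (0.98 ± 0.50, adjusted p = 0.289). In Gsc and Lhx1 the 5 libraries separated cleanly, and the standard error comes from a spread shared with Evx1as KO. In a fit of only the 5 WT and EVX1 KO libraries both were called (adjusted p = 0.0299 for each), while Foxa2 (0.0525), Sox17 (0.138) and Cxcr4 (0.170) were not. Against Evx1as KO, both passed, with Lhx1 higher by 4.49 (adjusted p = 5.47e-04) and Gsc by 3.05 (adjusted p = 0.00318). Cxcr4, a chemokine receptor of migrating mesendoderm cells, stood at 20.3 and 7.61 FPKM in WT and at 23.3, 36.3 and 29.7 FPKM in EVX1 KO (1.16 ± 0.36, adjusted p = 0.122).

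Pan-streak and nascent mesoderm factors did not pass either, and T, Mixl1 and Mesp1 overlapped between the groups. T (Brachyury), the T-box factor of the streak, stood at 191 and 221 FPKM in WT and at 204, 159 and 147 FPKM in EVX1 KO (−0.29 ± 0.42, 95% interval −1.24 to 0.67, adjusted p = 0.723). Mixl1, a mesendoderm homeobox factor, stood at 49.7 and 61.8 FPKM and at 55.1, 55.2 and 71.8 FPKM (0.12 ± 0.60, 95% interval −1.24 to 1.48, adjusted p = 0.926). These intervals are wide and leave room for changes of over 1 on the log2 scale either way for Mixl1. Eomes, a T-box factor that acts with Nodal in endoderm and mesoderm, stood at 42.7 and 46.6 FPKM and at 52.8, 69.6 and 74.8 FPKM (0.53 ± 0.37, adjusted p = 0.431). Mesp1, a basic helix-loop-helix factor of the earliest mesoderm, had 21.6 and 19.3 FPKM in WT and 6.57, 15.96 and 37.3 FPKM in EVX1 KO, so its libraries disagreed in direction (−0.33 ± 0.56, adjusted p = 0.760). Against Evx1as KO each of these 4 passed, with T higher in EVX1 KO by 1.78 (adjusted p = 0.0123), Mixl1 by 3.95 (adjusted p = 0.00190), Eomes by 2.33 (adjusted p = 0.00242) and Mesp1 by 3.64 (adjusted p = 0.00194). Of 18 streak and mesendoderm genes tested, Cer1 alone rose, 0 fell and the median was 0.17.

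Msgn1, the basic helix-loop-helix regulator of presomitic mesoderm, had the largest named fall. It stood at 18.7 and 16.1 FPKM in WT and at 2.32, 3.07 and 0.969 FPKM in EVX1 KO. No EVX1 KO library came near WT, and replicate 3, which lacks the chromosome 8 shift, was the lowest. The log2 difference was −2.62 ± 0.29 (adjusted p = 0.0118). Msgn1 was lower still in Evx1as KO (0.122 ± 0.212 FPKM, SD, n = 3), and the difference between the knockouts was 1.43 (adjusted p = 0.00660). The call was lost without WT replicate 1 or WT replicate 2, and over its 19 alternatives the adjusted p reached 0.142. Tbx6, a T-box factor that acts beside Msgn1, had 2.19 and 1.14 FPKM in WT and 2.17, 1.02 and 1.38 FPKM in EVX1 KO (−0.08 ± 0.28, adjusted p = 0.898). The Msgn1 promoter is shown because the gene is a known target of Wnt signalling through TCF/LEF factors. It is the 250 bases before the RefSeq start on GRCm38.p6, chr12:11208949-11209198, minus strand, with capitals for the TCF/LEF core.
Msgn1: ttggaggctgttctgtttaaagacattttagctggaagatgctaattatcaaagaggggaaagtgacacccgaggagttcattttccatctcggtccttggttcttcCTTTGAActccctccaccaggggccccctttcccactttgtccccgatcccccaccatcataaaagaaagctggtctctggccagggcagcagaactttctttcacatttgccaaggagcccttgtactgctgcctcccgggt
The TCF/LEF core was searched as CTTTGAA and CTTTGTT on both strands and stood in 9.17% of the 32841 windows. Msgn1 held 1 match, and 1 match to TAATTA. Of called genes with a window, TAATTA stood in 2 of 67 that rose (2.99%) and 3 of 50 that fell (6.0%), against 2.63% of 8468 that were not called.

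Among 16 genes of presomitic, lateral and cardiac mesoderm Msgn1 fell, 0 rose and the median was −0.08. The cardiac regulators Gata4 (0.81 ± 0.35, adjusted p = 0.222) and Hand2 (0.94 ± 0.34, adjusted p = 0.164) had positive differences, and the segmentation gene Lfng a negative one (−0.71 ± 0.28, adjusted p = 0.192). Outside the Hoxa cluster 2 Hox genes were tested, both at low levels. Hoxb1 stood at 4.24 and 1.55 FPKM in WT and at 0, 0.138 and 0.654 FPKM in EVX1 KO (−1.57 ± 0.32, adjusted p = 0.0527), and Hoxb9 at 2.32 and 1.78 FPKM and at 0.254, 0.676 and 0.690 FPKM (−0.99 ± 0.22, adjusted p = 0.0634). None of 10 cardiac and contractile muscle genes passed (median −0.56). Of these, Acta2, smooth muscle actin, stood at 115 and 189 FPKM in WT and at 32.5, 71.4 and 57.4 FPKM in EVX1 KO (−1.51 ± 0.36, adjusted p = 0.0722). None of 9 fibroblast genes (median −0.38), 5 blood and endothelium genes (−0.05) or 10 extraembryonic endoderm genes (−0.18) passed.

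**Figure D3:**
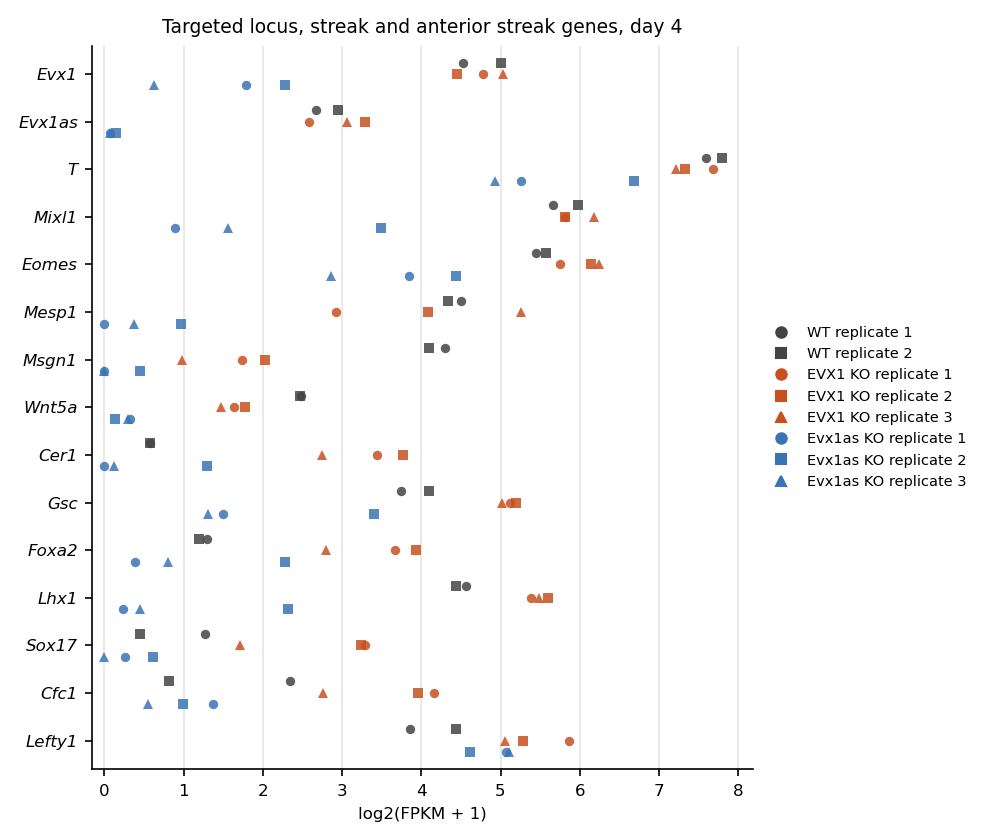
Log2(FPKM + 1) of Evx1, Evx1as and streak, mesoderm and endoderm genes (rows) in each of the 8 libraries; each point is 1 library, with WT in grey, EVX1 KO in orange and Evx1as KO in blue. T, Mixl1 and Evx1 overlap between WT and EVX1 KO, Cer1 lies above WT and Msgn1 below it in all 3 EVX1 KO libraries.

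The gene list with the most calls was that of the primed epiblast, where 5 of 12 tested genes rose, among them Fgf5, Otx2, Zic2 and Zic5, and 0 fell. Fgf5, the growth factor gene that marks the early post-implantation epiblast, stood at 13.5 and 13.6 FPKM in WT and at 35.2, 35.8 and 33.8 FPKM in EVX1 KO. Its libraries were tight within each group, and its log2 difference was 1.31 ± 0.08 (adjusted p = 7.23e-04). Otx2, a homeobox factor of the epiblast and anterior neural plate, stood at 12.3 and 9.53 FPKM in WT and at 39.0, 35.6 and 32.8 FPKM in EVX1 KO (1.64 ± 0.16, adjusted p = 0.0118). Zic2 and Zic5 encode zinc finger factors of the epiblast and neural plate. Zic5 stood at 6.24 and 9.32 FPKM and at 23.2, 17.9 and 15.1 FPKM (1.17 ± 0.21, adjusted p = 0.0384). The neighbouring Zic2, 9725 bp away in the table, stood at 22.3 and 24.6 FPKM and at 48.8, 46.7 and 46.2 FPKM (0.98 ± 0.11, adjusted p = 0.0118). Otx2, Zic2 and Zic5 lie on chromosome 14, whose median was raised by 0.158 on average over the 3 EVX1 KO libraries. With each library centred on its chromosome medians Otx2 (1.47, adjusted p = 0.0120), Zic2 (0.81, adjusted p = 0.0235) and Zic5 (1.00, adjusted p = 0.0490) remained called. The list's median was 0.39 over all 12 members and 0.00 over the 8 outside chromosomes 1, 8, 14 and X. Between the knockouts (EVX1 KO minus Evx1as KO), Fgf5 (0.13, adjusted p = 0.227) and Otx2 (−0.12, adjusted p = 0.597) did not pass, and Zic2 was lower in EVX1 KO (−0.63, adjusted p = 0.00344). These differences were not centred on chromosomes. The chromosome 14 medians of Evx1as KO replicates 1, 2 and 3 were 0.11, −0.372 and −0.384, so the knockouts also differed along the chromosome of Otx2 and Zic2. The Zic2 call was lost without WT replicate 1 or EVX1 KO replicate 2, and the Zic5 call without either WT replicate, EVX1 KO replicate 1 or 2 or Evx1as KO replicate 1 or 3. Their adjusted p reached 0.155 and 0.335.

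Pluripotency genes did not pass in either direction with all 8 libraries in the fit. Of 18 tested 0 rose and 0 fell, with a median of −0.33. Nanog, a core pluripotency factor that also persists in the posterior epiblast, stood at 25.0 and 49.2 FPKM in WT and at 128, 85.6 and 81.6 FPKM in EVX1 KO (1.43 ± 0.29, adjusted p = 0.0521). Sox2 stood at 11.7 and 18.8 FPKM and at 20.6, 15.2 and 17.4 FPKM (0.23 ± 0.22, adjusted p = 0.584), and was lower than in Evx1as KO (−1.45, adjusted p = 0.00210). Among naive-state genes the differences of Klf2 and Dppa5a were negative. Klf2, on chromosome 8, stood at 14.3 and 10.3 FPKM and at 0.939, 3.21 and 3.11 FPKM (−2.03 ± 0.43, adjusted p = 0.0579). Dppa5a stood at 85.2 and 70.9 FPKM and at 31.0, 30.2 and 24.5 FPKM (−1.42 ± 0.37, adjusted p = 0.0830). For Nanog, Klf2 and Dppa5a the groups did not overlap, and their calls turned on the setting. Dppa5a was called lower in a fit of only the 5 libraries (adjusted p = 0.0253), and Nanog was called higher with chromosome-centred values (1.41, adjusted p = 0.0470). Without EVX1 KO replicate 3, 2 genes of the list rose and 1 fell. None of 5 neuroectoderm genes passed (median −0.49), and Pax6 and Sox1 stayed under 1 FPKM in all 5 libraries.

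Signalling genes showed few calls. Of 14 Nodal ligands and targets Cer1 rose and 0 fell (median 0.33, and 0.10 for the 10 outside chromosomes 1, 8, 14 and X). Nodal itself stood at 67.2 and 68.7 FPKM in WT and at 87.3, 75.3 and 61.5 FPKM in EVX1 KO (0.12, adjusted p = 0.688). Its feedback inhibitor Lefty1, on chromosome 1, stood at 13.5 and 20.7 FPKM and at 57.0, 37.9 and 32.2 FPKM (1.25 ± 0.26, adjusted p = 0.0559). Lefty2 (0.99 ± 0.30, adjusted p = 0.110) and the co-receptor gene Cfc1 (2.05 ± 0.51, adjusted p = 0.0769) lie on the same chromosome. Of 22 Wnt ligands and targets Wnt5a fell and 0 rose (median −0.12). Wnt5a, a ligand of the streak and tail end that acts on cell polarity and movement, stood at 4.57 and 4.56 FPKM and at 2.12, 2.42 and 1.78 FPKM (−0.85 ± 0.15, adjusted p = 0.0403), and its call was lost with any 1 library left out except EVX1 KO replicate 3 and Evx1as KO replicate 2 (its adjusted p reached 0.258). Wnt3, the ligand that induces the streak, had a difference of −0.14 (adjusted p = 0.753) and the feedback target Axin2 of −0.25 (adjusted p = 0.432). Sfrp1, a secreted Wnt antagonist, stood at 0.897 and 0.861 FPKM and at 8.33, 6.72 and 2.34 FPKM (1.73 ± 0.38, adjusted p = 0.0615). Of 17 FGF genes Fgf5 rose and 0 fell. Fgf17 stood at 18.4 and 23.9 FPKM and at 87.8, 56.9 and 52.2 FPKM (1.56 ± 0.34, adjusted p = 0.0614), and Fgf8, the main streak FGF, at 69.0 and 73.2 FPKM and at 151, 112 and 75.2 FPKM (0.60 ± 0.28, adjusted p = 0.247). None of 14 BMP genes (median −0.08) or 11 Notch genes (0.13) passed. Vegfa, the vascular growth factor gene, rose from 5.86 and 7.29 FPKM to 17.8, 16.2 and 12.8 FPKM (1.13 ± 0.18, adjusted p = 0.0282), the only call among 22 hypoxia and glycolysis genes (median 0.23). The Vegfa call was lost without either WT replicate, EVX1 KO replicate 1 or 2 or Evx1as KO replicate 3, and its adjusted p reached 0.310. Against Evx1as KO, Vegfa did not pass (0.18, adjusted p = 0.455), and Wnt5a was higher in EVX1 KO (1.38, adjusted p = 5.47e-04).

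The metallothionein genes Mt1 and Mt2, which encode small proteins that bind zinc and copper, fell in EVX1 KO. Mt2 stood at 159 and 54.3 FPKM in WT and at 16.7, 12.99 and 25.3 FPKM in EVX1 KO. Mt1 stood at 108 and 42.1 FPKM in WT and at 10.3, 17.9 and 17.3 FPKM in EVX1 KO. The WT libraries differed from each other more than the EVX1 KO libraries did, and still both were higher. The log2 difference was −2.33 ± 0.40 for Mt2 (adjusted p = 0.0354) and −2.12 ± 0.36 for Mt1 (adjusted p = 0.0333). Both genes lie on chromosome 8, 5521 bp apart, and with chromosome-centred values they fell by 2.11 (Mt2, adjusted p = 0.0308) and 1.90 (Mt1, adjusted p = 0.0320). In EVX1 KO replicate 3 alone, the library without the chromosome shift, the differences from WT were −1.84 and −1.90. In Evx1as KO, Mt2 averaged 262 ± 28.2 FPKM (SD, n = 3), so that EVX1 KO stood lower by −3.81 on the log2 scale (adjusted p = 4.63e-04). The WT-based calls of both genes were lost without WT replicate 1, EVX1 KO replicate 1 or 2 or Evx1as KO replicate 1 or 3, and the adjusted p reached 0.340 for Mt2 and 0.282 for Mt1. The Mt2 promoter is shown because metallothionein genes are the standard targets of the zinc-sensing factor MTF1, which binds metal response elements. It is the 250 bases before the RefSeq start on GRCm38.p6, chr8:94172368-94172617, plus strand, with capitals for the metal response element core.
Mt2: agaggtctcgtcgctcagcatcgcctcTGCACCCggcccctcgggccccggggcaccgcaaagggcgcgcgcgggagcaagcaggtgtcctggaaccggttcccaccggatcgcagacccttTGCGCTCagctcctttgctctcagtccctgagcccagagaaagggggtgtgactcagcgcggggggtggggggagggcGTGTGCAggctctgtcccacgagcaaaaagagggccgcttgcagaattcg
The core was searched as TGCGCNC and TGCACNC on both strands. The Mt2 window held 3 matches, and 21.4% of the 32841 windows held at least 1. None of the 4 motifs searched shares letters with another in the windows shown. Of 10 metallothionein and oxidative stress genes Mt1 and Mt2 fell, 0 rose and the median was −0.24, or −0.03 over the 5 members on chromosomes other than 1, 8, 14 and X. Hmox1, the heme oxygenase gene on chromosome 8, stood at 113 and 82.5 FPKM and at 42.8, 50.4 and 71.4 FPKM (−0.84 ± 0.21, adjusted p = 0.0811).

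The cell cycle inhibitor genes Cdkn2a and Cdkn2b fell, and so did some p53 targets. Cdkn2a, which encodes the inhibitor p16 and the p53 activator ARF, stood at 18.6 and 17.4 FPKM in WT and at 2.82, 3.10 and 4.88 FPKM in EVX1 KO (−2.07 ± 0.23, adjusted p = 0.0118). The table gives 1 value for the gene, so its transcripts cannot be told apart. Its neighbour Cdkn2b, 11674 bp away, stood at 3.52 and 3.86 FPKM and at 1.06, 0.974 and 1.02 FPKM (−1.22 ± 0.20, adjusted p = 0.0307). Of 19 p53 targets 3 fell, Mdm2, Perp and Cdkn1a, and 0 rose, with a median of −0.45. In 15 of the 19 the EVX1 KO libraries all lay below WT, against 18.2% of all tested genes. Mdm2, the ubiquitin ligase that p53 induces, stood at 94.1 and 89.0 FPKM and at 53.1, 56.0 and 58.9 FPKM (−0.70 ± 0.09, adjusted p = 0.0208). Cdkn1a, which encodes the cell cycle inhibitor p21, stood at 130.4 and 130.7 FPKM and at 102, 93.2 and 90.2 FPKM (−0.45 ± 0.08, adjusted p = 0.0418). Perp, a membrane protein of p53-driven cell death, had a difference of −0.76 ± 0.15 (adjusted p = 0.0453). Mdm4, a partner of Mdm2 on chromosome 1, rose by 0.72 ± 0.14 (adjusted p = 0.0488), and was not called with chromosome-centred values (0.58, adjusted p = 0.0611). Rps27l, a p53 target outside the list that was chosen after its values were seen, went the other way. It stood at 110.1 and 125.1 FPKM in WT and at 189.7, 239.2 and 279.5 FPKM in EVX1 KO (0.98 ± 0.15, adjusted p = 0.0256). Its call was lost without either WT replicate, EVX1 KO replicate 2 or Evx1as KO replicate 3, with the adjusted p reaching 0.172. The calls of Cdkn2a and Mdm2 were lost without either WT replicate or EVX1 KO replicate 2 (reaching 0.142 and 0.258 as adjusted p), and that of Cdkn2b also without EVX1 KO replicate 1 (reaching 0.282). Perp, Cdkn1a and Mdm4 were not called with any 1 library left out other than EVX1 KO replicate 3, and their adjusted p reached 0.334, 0.258 and 0.383. Against Evx1as KO, Cdkn2a (0.41, adjusted p = 0.173) and Mdm2 (0.15, adjusted p = 0.213) did not pass. None of 16 replication and proliferation genes passed (median 0.19).

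The other large falls were in genes of several kinds. Vgf, which encodes a secreted neuropeptide precursor, stood at 10.3 and 6.997 FPKM in WT and at 1.62, 2.15 and 2.56 FPKM in EVX1 KO (−1.62 ± 0.19, adjusted p = 0.0145). Serpine2, a protease inhibitor, fell by 1.41 ± 0.21 (adjusted p = 0.0256), and was lower than in Evx1as KO as well (−0.85, adjusted p = 0.0144). Prph, a neuronal intermediate filament gene, stood at 12.4 and 14.4 FPKM and at 2.014, 3.17 and 5.76 FPKM (−1.71 ± 0.28, adjusted p = 0.0326). Nkx2-9, a homeobox gene, fell by 1.36 ± 0.18 (adjusted p = 0.0208). Tdh, the threonine dehydrogenase that feeds one-carbon metabolism in mouse ES cells, stood at 9.60 and 10.3 FPKM and at 1.73, 3.01 and 2.70 FPKM (−1.67 ± 0.24, adjusted p = 0.0244). Ly6h (−1.33), Ccno (−1.31), Igfbp7 (−1.31) and 1700007K13Rik (−1.31) were in a like range. Ctgf, a matrix protein gene and immediate target of YAP, stood at 45.6 and 44.2 FPKM and at 20.5, 18.8 and 23.3 FPKM (−1.07 ± 0.16, adjusted p = 0.0267), the only call among 16 immediate early genes (median −0.31). Lgals1, a galectin gene chosen after its values were seen, stood at 978 and 710.1 FPKM and at 338, 386 and 411 FPKM (−1.14 ± 0.22, adjusted p = 0.0488). The simple keratin gene Krt8 stood at 1686 and 1385 FPKM and at 969, 1176 and 1261 FPKM (−0.44 ± 0.20, adjusted p = 0.242). Krt8 is a large part of the trophoblast marker sum, so that sum moves with it. Of the same markers, Cdx2, Hand1 and Tfap2c overlapped between the groups. Elf5, the defining trophoblast factor, was under 0.1 FPKM in all 5 libraries. The part of these markers in the falls was not tested. Each of the called falls in Vgf, Serpine2, Prph, Nkx2-9, Tdh, Ly6h, Ccno, Igfbp7, 1700007K13Rik, Ctgf and Lgals1 was lost without WT replicate 1 and without EVX1 KO replicate 2, with the adjusted p reaching 0.159 for Vgf to 0.383 for Lgals1.

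Some metabolic genes rose. Of 20 cholesterol and fatty acid synthesis genes Scd1 and Insig1 rose and 0 fell. The list's median was 0.41, 19 of the 20 had positive differences, and in 15 the EVX1 KO libraries all lay above WT, against 21.4% of all tested genes. Scd1, the desaturase that makes oleic acid, stood at 11.1 and 12.1 FPKM in WT and at 24.5, 23.1 and 25.2 FPKM in EVX1 KO (1.01 ± 0.11, adjusted p = 0.0118), and its call was lost without WT replicate 1 (reaching an adjusted p of 0.142). Insig1, a sterol sensor of the endoplasmic reticulum, stood at 13.3 and 19.12 FPKM and at 29.7, 28.7 and 28.1 FPKM (0.81 ± 0.15, adjusted p = 0.0403). Hmgcs1, an early enzyme of cholesterol synthesis, did not pass (0.47 ± 0.09, adjusted p = 0.0517). Of 18 genes of the amino acid and unfolded protein responses Asns and Slc7a3 rose and 0 fell (median 0.33). Asns, asparagine synthetase, stood at 48.4 and 56.3 FPKM and at 84.2, 88.0 and 89.5 FPKM (0.73 ± 0.10, adjusted p = 0.0219). Pck2, a mitochondrial enzyme of the same stress response, stood at 4.75 and 4.58 FPKM and at 11.9, 12.4 and 10.8 FPKM (1.16 ± 0.18, adjusted p = 0.0270) and lies on chromosome 14. Insig1, Asns, Slc7a3 and Pck2 each lost their call with between 3 and 5 of the 8 libraries when these were left out singly, WT replicate 1 and EVX1 KO replicate 2 in each case, with the adjusted p reaching 0.342, 0.228, 0.213 and 0.286. Against Evx1as KO, Scd1 (−0.22, adjusted p = 0.133), Insig1 (0.33, 0.104), Asns (0.24, 0.0871) and Pck2 (0.09, 0.712) did not pass. Slc7a3 was lower in EVX1 KO than in Evx1as KO (−1.05, adjusted p = 5.06e-04).

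The remaining large rises were of mixed kinds. Jakmip1, a microtubule-associated protein gene, stood at 1.35 and 1.04 FPKM in WT and at 5.23, 5.42 and 3.66 FPKM in EVX1 KO (1.38 ± 0.21, adjusted p = 0.0272). Adamts9, a matrix protease gene, rose by 1.27 ± 0.22 (adjusted p = 0.0354), and Sema6d, a guidance molecule gene, by 1.27 ± 0.19 (adjusted p = 0.0256). Both were also above Evx1as KO, by 1.11 (adjusted p = 0.00585) and 1.55 (adjusted p = 7.38e-04). Kif26a (1.20), BC033430 (1.23) and H2-Q7 (1.20) were in the same range. Rpl39, a ribosomal protein gene of the X chromosome, stood at 22.8 and 21.8 FPKM and at 64.3, 58.3 and 130.4 FPKM (1.78 ± 0.28, adjusted p = 0.0291). For Rpl39, for 2010107E04Rik (66.0, 83.3 and 121 FPKM, against 24.2 and 38.6 in WT) and for the translation factor gene Eif3e (11.5, 12.9 and 17.2 FPKM, against 5.52 and 6.25), EVX1 KO replicate 3 was the highest library. Rpl39 and H2-Q7 belong to families with near-identical copies, and their values are uncertain where reads were split. The Polycomb partner Jarid2 rose by 0.48 ± 0.09 (adjusted p = 0.0444), the only call among 18 chromatin regulators (median 0.13), and was not called with any 1 library left out other than EVX1 KO replicate 3. Jakmip1, Adamts9, Sema6d, Kif26a, BC033430, H2-Q7, Rpl39, 2010107E04Rik and Eif3e each lost their call without WT replicate 1 and without EVX1 KO replicate 2, with the adjusted p reaching 0.142 for BC033430 to 0.348 for H2-Q7. Jakmip1, Kif26a, BC033430, Rpl39 and Eif3e were also higher than in Evx1as KO, by 0.75 (Eif3e) to 1.14 (Rpl39). H2-Q7 (0.24, adjusted p = 0.394), 2010107E04Rik (0.66, 0.0643) and Jarid2 (0.07, 0.585) did not pass in that contrast.

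**Figure D4:**
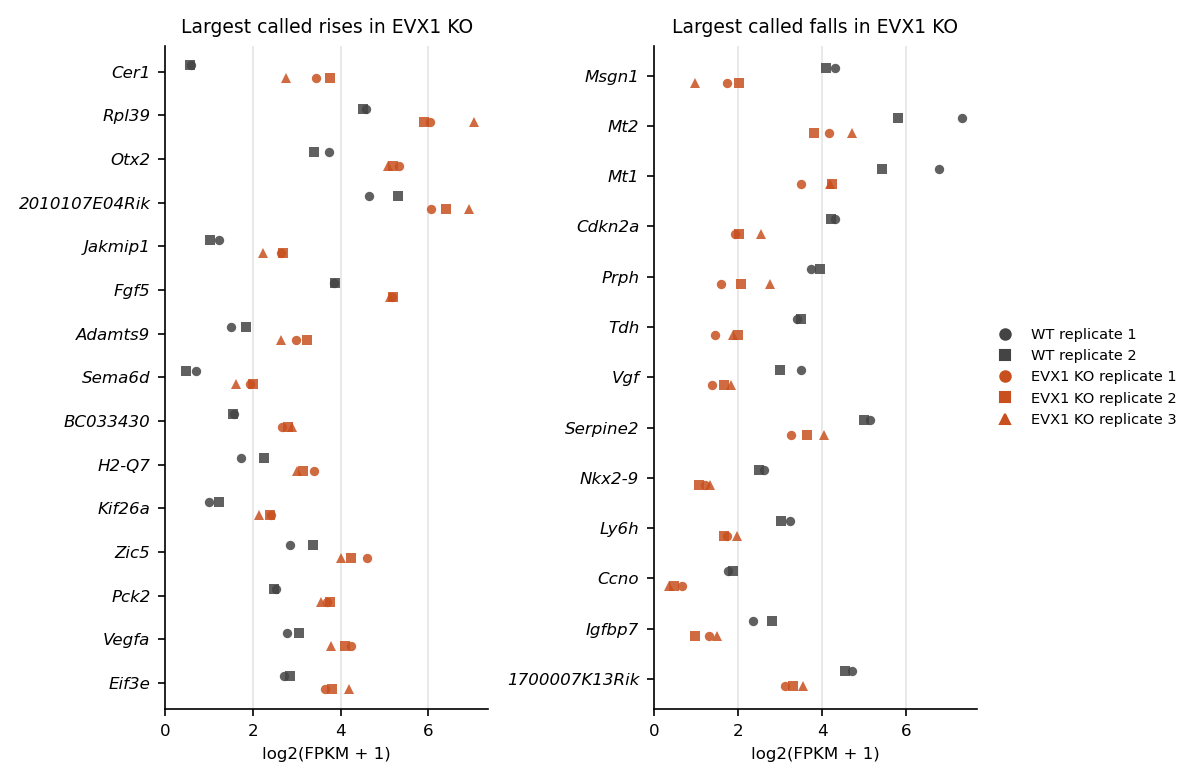
Log2(FPKM + 1) in each of the 5 libraries for the largest rises (left) and falls (right) in EVX1 KO that the text names; each point is 1 library, with WT in grey and EVX1 KO in orange. In every row the 3 EVX1 KO libraries lie on 1 side of both WT libraries, and for Rpl39, 2010107E04Rik and Eif3e replicate 3 is the highest.

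**Figure D5:**
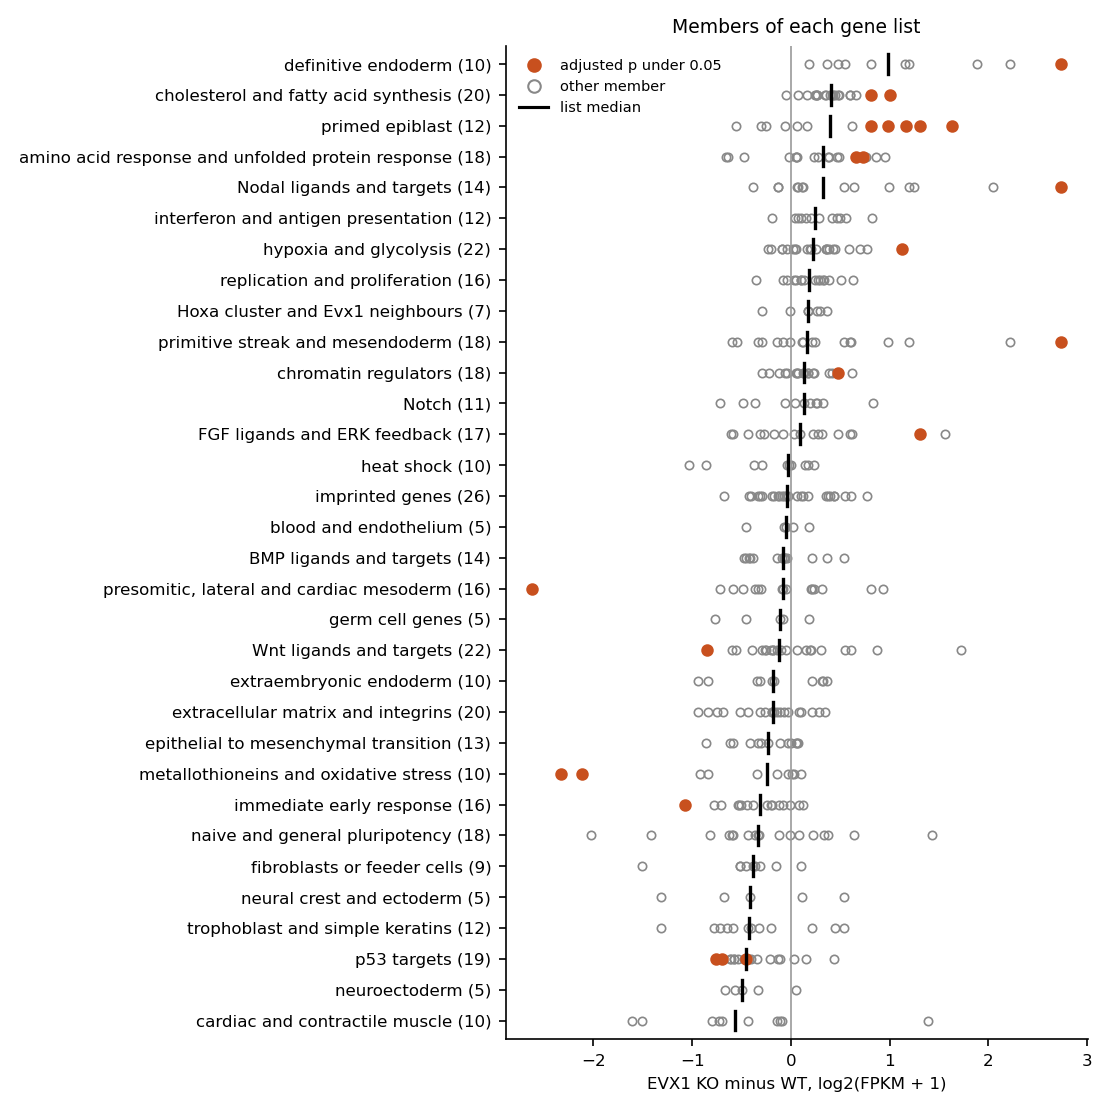
Log2 difference (EVX1 KO minus WT, horizontal axis) of each tested member of the gene lists with at least 5 tested members (rows, with the number tested); filled points have an adjusted p under 0.05 and bars are medians. Medians run from 0.98 for definitive endoderm to −0.56 for cardiac and contractile muscle, beside 0.02 over all genes tested.

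Calls were unevenly spread over chromosomes. Of 707 tested genes on chromosome 1, 24 rose and 1 fell (3.54% called, against 1.37% of all genes). Among the rises were the small nucleolar RNA hosts Gas5 (1.06 ± 0.16, adjusted p = 0.0256) and Snhg6 (0.80 ± 0.12, adjusted p = 0.0270) and the Hedgehog effector Gli2 (0.78 ± 0.12, adjusted p = 0.0272), chosen after their values were seen. On the X chromosome 11 of 426 rose and 0 fell (2.58%), among them Rbbp7, a subunit of Polycomb and deacetylase complexes (0.76 ± 0.11, adjusted p = 0.0248). Chromosome 12, whose median was not shifted (0.034 on average), had 7 rises and 6 falls among 467 genes (2.78%). Chromosome 14, raised by 0.158 where chromosome 1 was raised by 0.163, had 7 rises and 2 falls among 488 genes (1.84%). The Evx1as KO libraries, which enter the shared spread, disagreed on chromosome 14, with medians of 0.11, −0.372 and −0.384. On chromosome 1 they stood at −0.08, −0.047 and −0.083. The shares called on these 2 chromosomes are therefore not directly comparable, and the part of this spread in them was not tested. On chromosome 8, 7 of 723 fell and 0 rose (0.968%). Of the 5 most abundant falls there, Mt1 and Mt2 kept their call with chromosome-centred values, and 2310045N01Rik (adjusted p = 0.106), Mrpl34 (adjusted p = 0.0761) and Tmem66 (adjusted p = 0.149) lost it. In EVX1 KO replicate 3 alone, which lacks the shift, these 3 genes differed from WT by −0.68, −0.47 and −0.41, against −0.68, −0.61 and −0.50 with all EVX1 KO libraries. The calls of Gas5, Snhg6, Gli2 and Rbbp7 were lost without WT replicate 1 and without EVX1 KO replicate 2, with the adjusted p reaching 0.195, 0.258, 0.291 and 0.258. Chromosome-centred values also put Fgf17 (adjusted p = 0.0454), Hoxb1 (0.0478) and Hmgcs1 (0.0434) past the threshold. Called genes within 100 kb of each other formed 8 pairs, which included Zic5 with Zic2, Cdkn2a with Cdkn2b and Mt2 with Mt1. In all 8 both members changed in the same direction. XLOC_002292 overlaps Ctgf and Tcp1 overlaps Acat3, AB349695 lies 1147 bp from Mdm4, and whether such pairs share reads was not tested. The same share over all neighbouring genes was not computed. The part of the chromosome shifts in these calls was not tested beyond the values given.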

How the data were processed

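Poly(A) RNA of CJ9 ES cells was made into stranded libraries, per the labels' protocols. The authors deposited 1 table of FPKM values for all 8 libraries. CASAVA, TopHat2 2.0.11, mm10 and mm9 are named without a role, per the submitters' processing notes; no source used here names the program behind the FPKM values, the annotation or the strand setting. Of 45772 lines 3527 were blank, and 38610 symbols remained, of which 11633 were XLOC identifiers. Positions are those of the table, whose build is not given. Columns were matched to samples by name, and groups came from the labels.

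A gene was kept if 2 or more of the 5 WT and EVX1 KO libraries had 1 FPKM or more. Log2(FPKM + 1) of all 8 libraries entered 1 limma model (3.58.1, R 4.3.3, empirical Bayes with trend, two-sided) with a mean per group, so Evx1as KO added to the estimate of spread. P-values were adjusted by Benjamini-Hochberg over all 12685 genes, with a threshold of 0.05. Differences on this scale understate changes of low genes. FPKM give no counts, so no counting interval was possible. The steps were tested on simulated data. Tables were handled in Python 3.11.15 with pandas 2.3.3 and numpy 2.4.6, and figures drawn with matplotlib 3.10.9.

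Named genes were Evx1, Evx1as, the 15 largest rises and falls among called genes with no overlap of groups (3 and 2 lines with no gene symbol or a predicted Gm name were passed over), up to 4 members with the largest difference and any called member from each list, and the 5 most abundant falls of chromosome 8. T, Mixl1, Eomes, Mesp1, Tbx6, Pou5f1, Sox2, Nodal, Wnt3, Axin2, Fgf8, Lefty2, Cxcr4, Cdkn2b, Mdm4, Rps27l, Lgals1, Krt8, Hmgcs1, Rbbp7, Gas5, Snhg6 and Gli2 were added after their values were seen. Some genes picked by these rules are left out of the text and figures. Members and lists were chosen with earlier results of these data known. Promoter sequences are RefSeq's (GRCm38.p6), matched by symbol for 138 of 179 named genes.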

Additional observations from a re-analysis of the deposited data

How the results depend on the processing

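The counts of 97 rises and 77 falls moved with most choices, and the cause was not tested except where the alternative itself changes the genes or libraries used. There were 15 and 21 with no filter on low values (22849 genes tested), 16 and 19 in a fit of only the 5 libraries, 648 and 575 with array weights, and 5 and 3 without EVX1 KO replicates 1 and 2. Leaving out 1 library at a time gave 4 to 295 rises and 1 to 366 falls. With each library centred on its chromosome medians there were 134 falls, while the 125 rises stayed within 1.5 times. A pseudocount of 0.1 or 0.5 FPKM, a filter of 5 FPKM, median-ratio scaling and leaving out chromosome 8 genes gave 85 to 138 rises and 66 to 107 falls. Median-ratio scaling gave 85 and 92, so that 48.0% of calls were rises against 55.7%, and with no filter the share was 41.7%.

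With the replicate number as a block there were 14 rises and 14 falls. Deviations of the 7 same-numbered pairs correlated at −0.103 to 0.082, none over 0.1. Differently numbered pairs were not computed beside them, so these values cannot tell whether the numbers pair the samples.

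The chromosome 8 median of −0.26 ran from −0.16 without EVX1 KO replicate 1 to −0.40 without EVX1 KO replicate 3. Of 3342 values of named genes under alternatives 0 reversed a call, 458 fell short of the threshold and 112 passed it newly. In called genes the groups did not overlap, so leaving out libraries could not reverse their sign. Without EVX1 KO replicates 1 and 2, the primed epiblast list had 1 rise (median 0.17), definitive endoderm 0 (0.82), cholesterol and fatty acid synthesis 0 (0.49) and p53 targets 0 falls (−0.28), and without EVX1 KO replicate 3 there were 6, 3 and 3 rises and 8 falls; these list values were added after seeing the data. Depth limits low genes, for which FPKM rest on few reads. Alternatives that centre values on chromosomes or leave out chromosome 8 or several libraries were set up with the chromosome shift already known.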
